A study of Mus musculus with 8 samples.

Results

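The mitosis and S-phase genes are a list of 46 genes that encode enzymes of DNA synthesis, cyclins and kinases of the cell cycle, checkpoint proteins, and proteins of the centromere, the spindle and the chromosome. They were chosen by gene symbol, and each gene was read from the annotated probe with the highest mean. Of the 46, 41 had a named probe among 16593 genes on the array. Aurkb, Ccnb1, Mki67, Ncapg and Racgap1 were not analysed here. Of the 41, 32 were tested, because their probe lay above background on at least 2 arrays. Of these 32, 29 lay above background on all 8 arrays.

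The cells were Gr1+ cells of the spleen, taken with magnetic beads from female C57BL/6 mice aged 6 to 8 weeks, and their RNA was hybridised to Illumina MouseRef-8 v2 arrays. The LPS+HY209 group (3 arrays, titled LT) had LPS, a bacterial cell wall component that causes a sepsis-like inflammation, into the peritoneum and 30 min later HY209 (sodium taurodeoxycholate, a bile salt) into a vein. The LPS group (3 arrays) had LPS and then PBS, and the PBS group (2 arrays, numbered 1 and 3) had PBS in place of both. Spleens were taken at 48 h. No group had HY209 without LPS. Each array stands for RNA pooled from many spleens, 10 to 15 by one text of the labels and 30 to 40 by another, so no value belongs to a single animal. Gr1 is carried mostly by granulocytes and some monocytes, and the labels give over 95% of the Gr1+ cells as CD11b+. Itgam, which encodes CD11b, averaged 2584 ± 475 in LPS+HY209, 2612 ± 415 in LPS and 535 ± 42 in PBS (intensity, SD). Ly6c1, which encodes one antigen that Gr1 antibodies bind, averaged 16004 ± 473, 15208 ± 189 and 9587 ± 890 in the same groups. Ly6g, which encodes the other one, was not analysed here. Transcripts of red cell precursors, lymphocytes and macrophages were also measured, and their values stand beside the results below.

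A dividing cell copies its DNA in S phase, when ribonucleotide reductase, thymidylate synthase and thymidine kinase supply the building blocks. It then separates the copies in mitosis, driven by Cdk1, Plk1 and the Aurora kinases and held back by the spindle checkpoint until every chromosome is attached. Many of these genes are transcribed only in cycling cells, through E2F factors in S phase and through the MuvB complex with B-Myb or FoxM1 in G2 and mitosis. Mature neutrophils have left the cycle, while their early precursors, red cell precursors and activated lymphocytes divide.

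Intensities are the deposited values on a linear scale, quantile normalized between arrays. A probe counts as above background over an intensity of 168, which 13114 of 25697 probes passed on each array. Log2 changes were computed after background correction and carry the standard error of the fit (±). They were tested with limma over 10296 genes and called at an adjusted p under 0.05. The number of arrays limits the precision.

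With HY209 added to LPS, genes of both S phase and mitosis rose. In LPS+HY209 against LPS, limma called 22 of the 32 tested members higher and 0 lower, and at an unadjusted p under 0.05 the counts were 28 and 0. Over all genes tested, 6.05% were called higher and 3.42% lower. The members were chosen with earlier results of these data known, so the gap between these shares describes the list and does not test it. The rises were of moderate size, from 1.30-fold to 1.82-fold (log2 change 0.38 to 0.87, median 0.56). All 32 tested members had a log2 change above 0, with a median of 0.47 against -0.013 over all genes tested. For the 22 called members, every LPS+HY209 array stood above every LPS array. Such separation in the higher direction held for 26 of the 32 tested members and for 14.5% of all genes tested. Because the filter can favour genes that are high in 1 group, the count was also made with every gene on the array tested. Then 20 of the 41 members were called higher and 0 lower, against 2.75% and 1.39% of 16593 genes. The arrays measure RNA from a mixed sorted fraction, so more cells of a dividing type and more RNA per cell cannot be told apart.

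With LPS alone, members were called in both directions, as were all genes, and these counts are not particular to the members. In LPS against PBS, 4 of 32 were called higher (Tyms, Bub1b, Mad2l1 and Kif2c) and 8 lower (Tk1, Birc5, Cenpa, Kif11, Kif23, Prc1, Nusap1 and Top2a). Over all genes tested, 25.5% were called higher and 29.9% lower. The higher count was 2 without PBS 1 or PBS 3, and the lower count was 5 without LPS 1 and 3 without PBS 3. The median log2 change over the tested members was -0.085, against -0.0041 over all genes. Of the 8 that fell, 7 were among the 22 called higher in LPS+HY209 against LPS, the exception being Kif23. Both comparisons use the LPS arrays, so a low value there enters each with the opposite sign. Values in all 3 groups are therefore given for every member called in either comparison, except Kif4. In LPS+HY209 against PBS, 22 members were called higher and 1, Kif23, lower, against 21.4% and 25.9% of all genes. The higher count was 12 without PBS 1 and 14 without PBS 3. This comparison shares the PBS arrays with LPS against PBS and the LPS+HY209 arrays with the comparison of HY209.

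**Figure D1:**
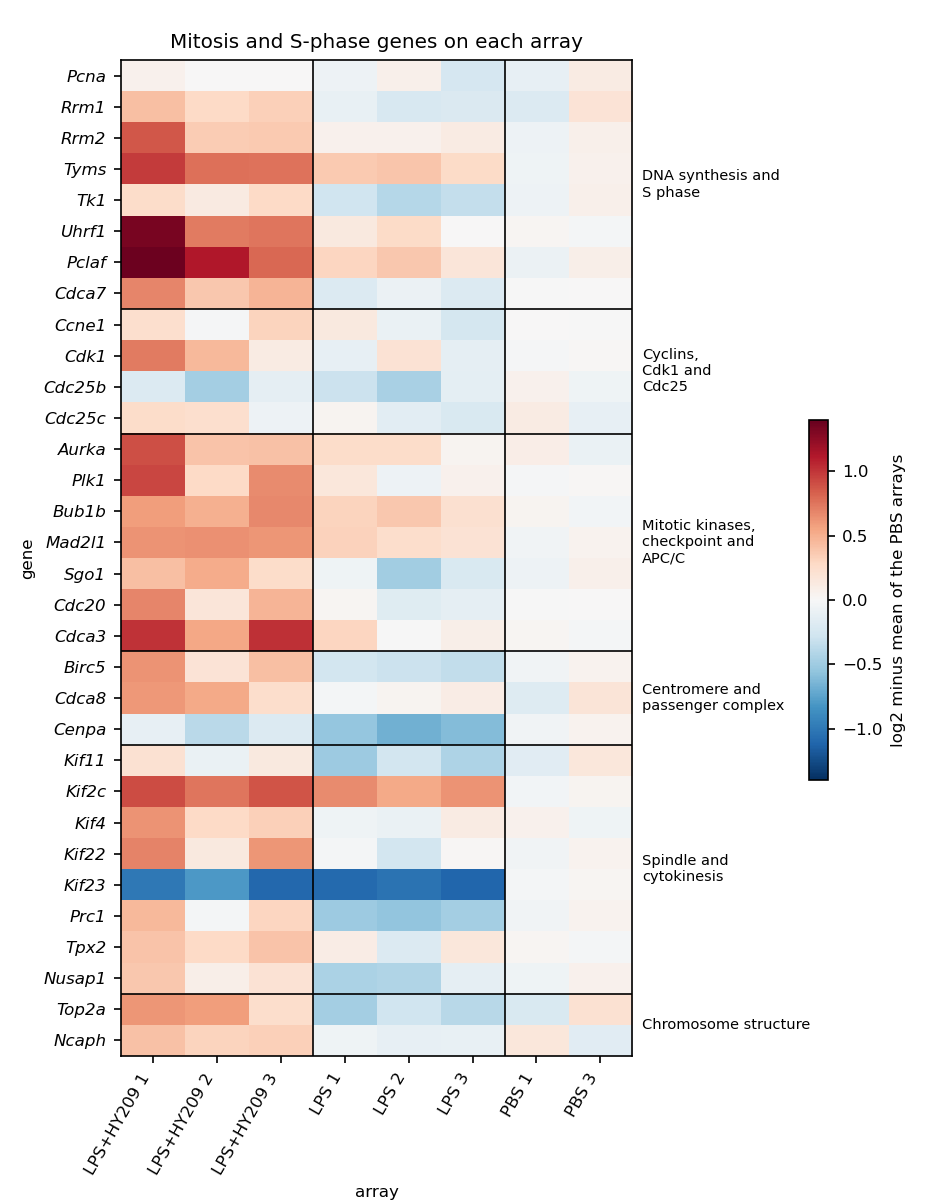
Log2 intensity of the 32 tested mitosis and S-phase genes on each of the 8 arrays, minus the mean of the PBS arrays, with genes in rows by role and arrays in columns. The LPS+HY209 columns are redder than the LPS columns in nearly every row, and Kif23 is blue in both groups that had LPS.

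**Figure D2:**
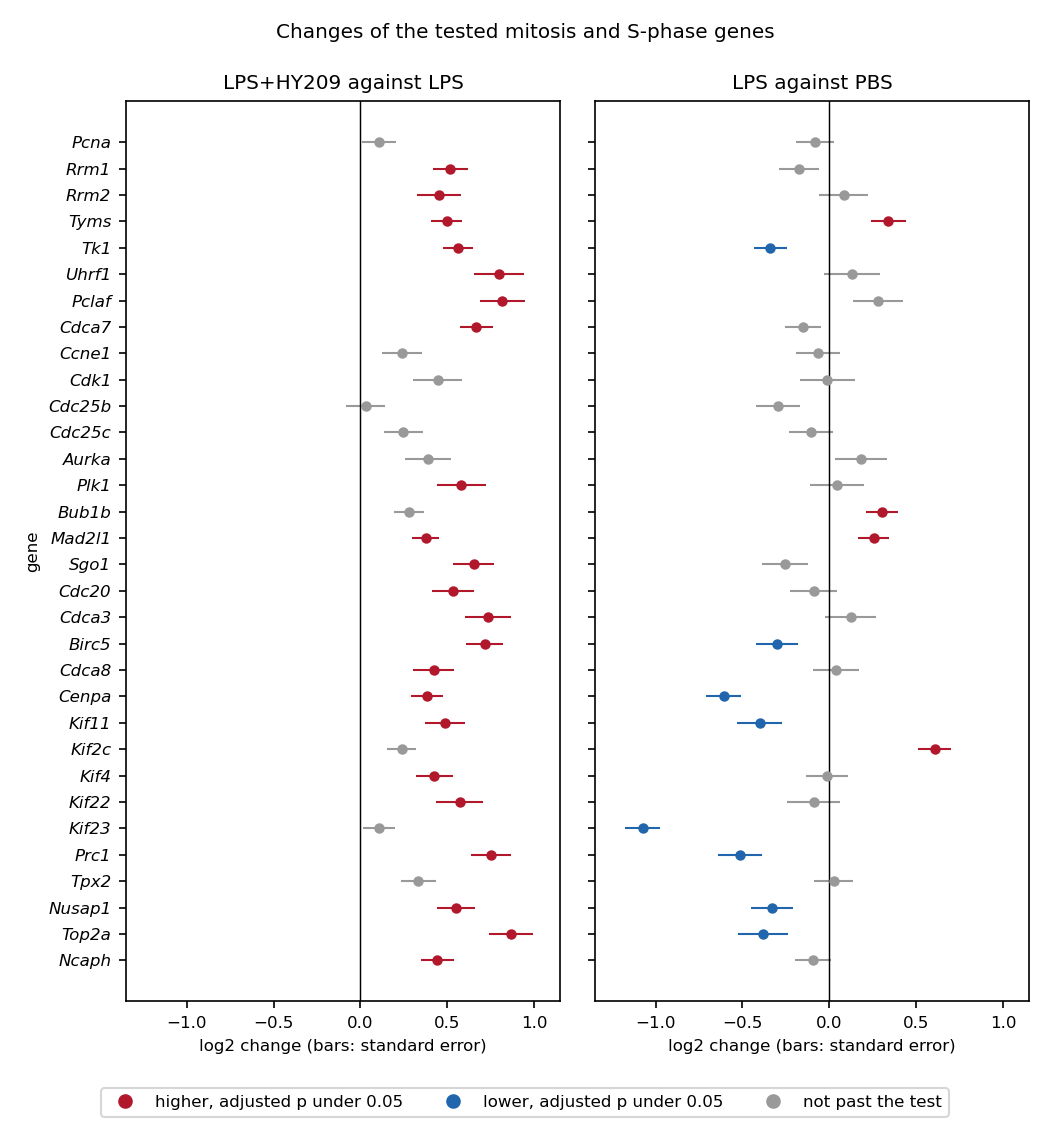
Log2 change (points) with its standard error (bars) for each tested member in LPS+HY209 against LPS (left) and in LPS against PBS (right), coloured by the call at an adjusted p under 0.05. All 32 points lie right of 0 on the left side, 22 of them called, while on the right side 4 are called higher and 8 lower.

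The 6 members with the largest called changes in LPS against PBS were Kif23, Cenpa, Kif2c, Prc1, Kif11 and Top2a, and their promoters are printed here because MuvB is known to bind the CHR motif, TTTGAA or its variant TTTAAA, often near a CCAAT box bound by NF-Y. Each sequence runs from 250 bases before the gene's start to 50 after it, from RefSeq on GRCm38.p6, and capitals mark the CHR motif, its variant and CCAAT on either strand (from the opposite strand CCAAT reads as ATTGG, and the CHR motif as TTCAAA). The windows are Kif23 at chr9:61946750-61947049, minus strand, Cenpa at chr5:30666636-30666935, plus strand, Kif2c at chr4:117178723-117179022, minus strand, Prc1 at chr7:80294201-80294500, plus strand (the first of its 2 overlapping windows), Kif11 at chr19:37376132-37376431, plus strand and Top2a at chr11:99024140-99024439, minus strand.
Kif23: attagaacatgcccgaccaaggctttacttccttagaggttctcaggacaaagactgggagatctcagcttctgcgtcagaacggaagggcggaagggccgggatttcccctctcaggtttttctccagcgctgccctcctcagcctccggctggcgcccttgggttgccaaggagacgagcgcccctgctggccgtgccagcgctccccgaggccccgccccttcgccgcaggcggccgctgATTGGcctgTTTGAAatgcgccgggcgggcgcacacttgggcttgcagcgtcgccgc
Cenpa: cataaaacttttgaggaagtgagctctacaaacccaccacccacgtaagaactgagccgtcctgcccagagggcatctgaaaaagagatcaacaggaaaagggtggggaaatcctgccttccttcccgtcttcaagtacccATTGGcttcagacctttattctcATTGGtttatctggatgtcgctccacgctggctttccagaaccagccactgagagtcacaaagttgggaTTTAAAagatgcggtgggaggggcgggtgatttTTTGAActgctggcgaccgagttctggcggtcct
Kif2c: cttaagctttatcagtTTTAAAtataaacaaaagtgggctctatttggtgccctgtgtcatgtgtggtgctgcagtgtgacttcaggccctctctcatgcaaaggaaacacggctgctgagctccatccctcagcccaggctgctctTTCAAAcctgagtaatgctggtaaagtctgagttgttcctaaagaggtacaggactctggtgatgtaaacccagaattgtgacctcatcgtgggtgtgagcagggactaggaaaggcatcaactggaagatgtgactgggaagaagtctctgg
Prc1: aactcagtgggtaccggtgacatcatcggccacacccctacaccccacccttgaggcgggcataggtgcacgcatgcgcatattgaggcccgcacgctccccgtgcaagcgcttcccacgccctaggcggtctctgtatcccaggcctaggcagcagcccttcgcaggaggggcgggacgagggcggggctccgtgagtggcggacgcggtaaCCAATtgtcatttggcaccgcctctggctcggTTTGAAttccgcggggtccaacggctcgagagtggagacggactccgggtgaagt
Kif11: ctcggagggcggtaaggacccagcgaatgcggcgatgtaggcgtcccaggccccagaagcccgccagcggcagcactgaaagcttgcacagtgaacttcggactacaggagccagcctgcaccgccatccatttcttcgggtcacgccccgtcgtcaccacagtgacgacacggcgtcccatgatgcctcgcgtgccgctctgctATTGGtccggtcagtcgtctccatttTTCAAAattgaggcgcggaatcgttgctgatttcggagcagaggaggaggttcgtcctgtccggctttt
Top2a: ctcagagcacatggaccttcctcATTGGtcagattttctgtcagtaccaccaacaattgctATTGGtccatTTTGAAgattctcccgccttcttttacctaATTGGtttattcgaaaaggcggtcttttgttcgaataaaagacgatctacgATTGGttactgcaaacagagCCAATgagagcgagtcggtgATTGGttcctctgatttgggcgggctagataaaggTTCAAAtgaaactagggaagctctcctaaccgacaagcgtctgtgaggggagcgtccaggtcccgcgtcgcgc

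All 6 windows held TTTGAA on one strand. Counted from the start, with 0 for the first base of the gene, the motif began at 2 in Kif23, 16 in Cenpa, -103 in Kif2c, -5 in Prc1 and -19 in Kif11. Top2a held it at -179 and -23. The variant TTTAAA began at -17 in Cenpa and at -234 in Kif2c. CCAAT began at -7 in Kif23, at -37 in Prc1, at -45 in Kif11 and at -109 and -86 in Cenpa. Top2a held 6 CCAAT boxes between -227 and -58, and Kif2c held none. No window of the 6 held the E2F motif TTTNGCGC. Of the 46 members, 39 matched a promoter of the table. TTTGAA was present in 21 of the 39 (53.8%), against 20.2% of 27025 genes. CCAAT was present in 30 (76.9%, against 41.1%), TTTAAA in 12 (30.8%, against 14.9%) and TTTNGCGC in 3 (7.69%, against 1.57%). Of the 22 members called higher in LPS+HY209 against LPS, 10 held TTTGAA and 15 held CCAAT. A match is a description of these letters and does not show that a factor binds.

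The genes of DNA synthesis and S phase rose together with HY209, 7 of 8 called against 6.05% of all genes tested, with Pcna the exception. Pclaf, which encodes a protein that binds the sliding clamp PCNA, had intensities of 1319, 1123 and 914 on the LPS+HY209 arrays, 665, 698 and 612 on the LPS arrays and 524 and 583 on the PBS arrays. The 3 groups did not overlap, and the LPS+HY209 arrays were the highest. The change in LPS+HY209 against LPS was 0.82 ± 0.13 (adjusted p = 0.0036), and that in LPS against PBS was 0.28 ± 0.14 (adjusted p = 0.12). Uhrf1, which guides the copying of DNA methylation, had 2391, 1601 and 1622 on the LPS+HY209 arrays, 1083, 1179.8 and 997 on the LPS arrays and 1011 and 978 on the PBS arrays. LPS and PBS arrays overlapped, while every LPS+HY209 array stood above them, LPS+HY209 1 by the most. The change was 0.80 ± 0.14 against LPS (adjusted p = 0.0073) and 0.93 ± 0.16 against PBS (adjusted p = 0.00045). Cdca7, a partner of the chromatin remodeller HELLS, had 2418, 1969 and 2105 on the LPS+HY209 arrays, 1348, 1450.1 and 1349 on the LPS arrays and 1522 and 1535 on the PBS arrays. It was above both other groups on every LPS+HY209 array (0.67 ± 0.09 against LPS, adjusted p = 0.0017).

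Tk1 and Tyms make thymidine nucleotides by separate routes, salvage and synthesis, and the probes used differed in the direction of their change with LPS. Tk1 had 847, 780.0 and 859.6 on the LPS+HY209 arrays, 603, 562 and 583 on the LPS arrays and 689.5 and 751 on the PBS arrays. It was lowest in LPS, lower than PBS (-0.34 ± 0.09, adjusted p = 0.0088) and higher again in LPS+HY209 than in LPS (0.56 ± 0.08, adjusted p = 0.0027). Tyms had 575, 508 and 506 on the LPS+HY209 arrays, 399, 405 and 379 on the LPS arrays and 314 and 338 on the PBS arrays. It was lowest in PBS and was called higher in both comparisons (0.34 ± 0.10, adjusted p = 0.012 for LPS against PBS, and 0.50 ± 0.09, adjusted p = 0.0072 for LPS+HY209 against LPS). The call of Tyms in LPS against PBS was lost without PBS 1, and that of Tk1 without PBS 3, and both were lost with the mean of all probes of the gene, as a further probe of each showed a change near 0. Rrm1 and Rrm2 encode the large and small subunits of ribonucleotide reductase. Rrm1 had 1341, 1222 and 1269 on the LPS+HY209 arrays, 953, 885 and 898 on the LPS arrays and 903 and 1156 on the PBS arrays, with every LPS+HY209 array the highest (0.52 ± 0.10 against LPS, adjusted p = 0.010, and the call was lost without LPS+HY209 1). Rrm2 had 544, 400.3 and 404 on the LPS+HY209 arrays, 339.8, 339.8 and 350.2 on the LPS arrays and 315 and 341 on the PBS arrays. Its change of 0.45 ± 0.13 had an adjusted p = 0.046 and was lost without any 1 of 6 arrays, LPS+HY209 1, each LPS array and each PBS array. Pcna, the clamp itself, lay above background on 3 arrays, with values between 152 and 175, and its change with HY209 was 0.11 ± 0.10 (adjusted p = 0.54).

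Of the 4 tested genes of cyclins, Cdk1 and the Cdc25 phosphatases, limma called 0 in LPS+HY209 against LPS or in LPS against PBS. At an unadjusted p under 0.05 there were 2 higher in LPS+HY209 against LPS and 1 lower in LPS against PBS. Over all genes tested, 6.05% were called higher and 3.42% lower in LPS+HY209 against LPS. In LPS against PBS the shares were 25.5% and 29.9%. With 4 genes, a count of 0 does not set this group apart from all genes. Cdk1, the kinase that starts mitosis, had 473, 401 and 333 on the LPS+HY209 arrays, 293, 349 and 292 on the LPS arrays and 309 and 314 on the PBS arrays. The LPS+HY209 and LPS arrays overlapped, since LPS 2 stood above LPS+HY209 3, and the change was 0.44 ± 0.14 (adjusted p = 0.075). Against PBS it was called (0.43 ± 0.16, adjusted p = 0.041), and that call was lost without any 1 of 4 arrays, LPS+HY209 1, LPS+HY209 2, PBS 1 and PBS 3. Cdc25b, a phosphatase that activates Cdk1, had 333, 285 and 344 on the LPS+HY209 arrays, 313, 289 and 343 on the LPS arrays and 383 and 358 on the PBS arrays, and its change with HY209 was 0.03 ± 0.11 (adjusted p = 0.90). The other phosphatase Cdc25c (0.25 ± 0.11, adjusted p = 0.19) and cyclin E1, encoded by Ccne1 (0.24 ± 0.12, adjusted p = 0.22), had values between 161 and 238 on all arrays. Ccna2, Ccnb2 and Ccne2, which encode cyclins A2, B2 and E2, were not tested. Ccna2 and Ccnb2 lay below background on every array and Ccne2 on all but LPS+HY209 1 (176).

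Among the mitotic kinases, the checkpoint and the anaphase-promoting complex (APC/C), 5 of 7 tested members rose with HY209, against 6.05% of all genes tested. All 7 were called higher in LPS+HY209 than in PBS (21.4% of all genes), Cdca3 only by the probe used. Against PBS, the call of Aurka was lost without PBS 3 and that of Cdc20 without LPS+HY209 1, PBS 1 or PBS 3. The call of Sgo1 there was lost without LPS+HY209 1, LPS+HY209 2, PBS 1 or PBS 3. Cdca3, a trigger of mitotic entry, had 1544, 1133 and 1559.8 on the LPS+HY209 arrays, 968, 795 and 845 on the LPS arrays and 812 and 788 on the PBS arrays. LPS+HY209 arrays stood above both other groups, which overlapped each other (0.73 ± 0.13 against LPS, adjusted p = 0.0068). Sgo1, which protects cohesion at the centromere, had 258, 271 and 237 on the LPS+HY209 arrays, 204, 169 and 189.8 on the LPS arrays and 203 and 216 on the PBS arrays, again with every LPS+HY209 array the highest (0.65 ± 0.12, adjusted p = 0.0069). Plk1, a kinase of mitotic entry and spindle assembly, had 1319.9, 864 and 1107 on the LPS+HY209 arrays, 796, 689.5 and 750.2 on the LPS arrays and 713 and 732 on the PBS arrays. The LPS and PBS arrays overlapped, and the rise in LPS+HY209 was 0.58 ± 0.14 (adjusted p = 0.023). Cdc20, the activator of the APC/C, had 1233, 884 and 1081 on the LPS+HY209 arrays, 809.6, 713 and 732 on the LPS arrays and 793 and 797 on the PBS arrays, and changed by 0.53 ± 0.12 against LPS (adjusted p = 0.018). The calls of Plk1 and Cdc20 against LPS were lost without any 1 of LPS+HY209 1, LPS+HY209 3, LPS 2 and LPS 3.

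The checkpoint genes Mad2l1 and Bub1b, whose products hold Cdc20 in check, were higher in LPS than in PBS. Mad2l1 had 807, 818 and 807 on the LPS+HY209 arrays, 666, 636 and 621 on the LPS arrays and 532 and 564 on the PBS arrays. The groups did not overlap and stood in the order LPS+HY209, LPS and PBS (0.26 ± 0.09, adjusted p = 0.026 for LPS against PBS, and 0.38 ± 0.08, adjusted p = 0.012 for LPS+HY209 against LPS, this call lost without LPS 3). Bub1b had 317, 302 and 332 on the LPS+HY209 arrays, 274, 284 and 262 on the LPS arrays and 238 and 229.7 on the PBS arrays. It stood in the same order, called in LPS against PBS (0.30 ± 0.09, adjusted p = 0.017) and not in LPS+HY209 against LPS (0.28 ± 0.08, adjusted p = 0.061). The call of Bub1b against PBS was lost without LPS 2 or PBS 3, and that of Mad2l1 without LPS 1, PBS 1 or PBS 3. Aurka, which encodes the Aurora kinase of the spindle poles, had 805, 586 and 592 on the LPS+HY209 arrays, 538, 537 and 471 on the LPS arrays and 486 and 437 on the PBS arrays. Its change with HY209 was 0.39 ± 0.13 (adjusted p = 0.094). Bub1, another checkpoint kinase, lay below background on every array, and Ube2c, the ubiquitin-conjugating enzyme of the APC/C, on all but LPS 2 (184), so neither was tested.

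All 3 tested genes of the centromere and the passenger complex rose with HY209, and 2 of them fell with LPS. Over all genes tested, 6.05% were called higher with HY209 and 29.9% lower with LPS. Cenpa, the histone H3 variant that marks centromeres, had 5226, 4391 and 4980.4 on the LPS+HY209 arrays, 3914, 3576 and 3734 on the LPS arrays and 5462 and 5874 on the PBS arrays. It fell in LPS against PBS (-0.61 ± 0.10, adjusted p = 0.00027), and it rose in LPS+HY209 against LPS (0.38 ± 0.09, adjusted p = 0.022) without any array reaching the PBS values. The rise with HY209 was lost without any 1 of LPS+HY209 1, LPS+HY209 3, LPS 2 and LPS 3. Birc5, which encodes survivin of the chromosomal passenger complex, had 831, 631 and 728 on the LPS+HY209 arrays, 480.4, 468 and 455 on the LPS arrays and 544 and 578 on the PBS arrays. Every LPS+HY209 array stood above PBS and every LPS array below it (0.72 ± 0.11, adjusted p = 0.0026 against LPS). The fall of Birc5 in LPS against PBS (-0.30 ± 0.12, adjusted p = 0.049) was lost without LPS+HY209 3 or any 1 array of LPS or PBS. Cdca8, which encodes borealin of the same complex, had 261, 251 and 218 on the LPS+HY209 arrays, 192, 198 and 204 on the LPS arrays and 179.7 and 212 on the PBS arrays, with a change of 0.42 ± 0.12 against LPS (adjusted p = 0.045), lost without any 1 LPS+HY209 array other than LPS+HY209 3 or any 1 LPS array. Cenpe, a kinesin of the kinetochore, passed background on 1 array (169 on LPS 2) and was not tested.

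The largest fall and the largest rise of a called member with LPS were both in spindle and cytokinesis genes. Kif23, a kinesin of the central spindle that is needed for cytokinesis, had 877, 997 and 826 on the LPS+HY209 arrays, 832, 861 and 821 on the LPS arrays and 1659 and 1723 on the PBS arrays. It fell in LPS against PBS (2.11-fold, -1.08 ± 0.10, adjusted p = 2.3e-06), and LPS+HY209 and LPS arrays overlapped (0.11 ± 0.09, adjusted p = 0.50). Kif2c, which depolymerises microtubules at centromeres, had 523, 473 and 513 on the LPS+HY209 arrays, 452, 417 and 442 on the LPS arrays and 304 and 317 on the PBS arrays. It was the member with the largest rise in LPS against PBS (1.52-fold, 0.61 ± 0.09, adjusted p = 0.00015), and its further change with HY209 was 0.24 ± 0.08 (adjusted p = 0.10). Prc1, which bundles the microtubules of the spindle midzone, had 1852, 1345 and 1673 on the LPS+HY209 arrays, 985, 958 and 1005 on the LPS arrays and 1332 and 1417 on the PBS arrays. It fell in LPS (-0.51 ± 0.13, adjusted p = 0.0043) and rose in LPS+HY209 against LPS (0.75 ± 0.11, adjusted p = 0.0027), where its values overlapped those of PBS.

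Kif11, the kinesin that pushes the spindle poles apart, had 288, 245 and 276 on the LPS+HY209 arrays, 201, 226 and 208 on the LPS arrays and 237 and 279 on the PBS arrays. It was lowest in LPS (-0.40 ± 0.13, adjusted p = 0.019 against PBS) and higher in LPS+HY209 (0.49 ± 0.12 against LPS, adjusted p = 0.022). Nusap1, a microtubule-binding protein of the mitotic spindle, had 657, 551 and 591 on the LPS+HY209 arrays, 403, 407 and 484 on the LPS arrays and 504 and 543 on the PBS arrays, the LPS arrays again the lowest (-0.33 ± 0.12, adjusted p = 0.036 against PBS, and 0.55 ± 0.11, adjusted p = 0.010 in LPS+HY209 against LPS). Kif22, a kinesin that moves chromosome arms, had 1406, 981 and 1335 on the LPS+HY209 arrays, 883, 759 and 907 on the LPS arrays and 868 and 925 on the PBS arrays. Its LPS and PBS arrays overlapped, and the change with HY209 was 0.57 ± 0.14 (adjusted p = 0.023). Kif4, a kinesin bound to chromosomes, changed by 0.43 ± 0.11 (adjusted p = 0.029), and Tpx2, an activator of Aurora A, by 0.33 ± 0.10 (adjusted p = 0.061). Kif20a, Ect2 and Stmn1, a kinesin and a regulator of cytokinesis and a protein that destabilises microtubules, lay below background on every array.

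The falls of Kif11, Nusap1 and Top2a in LPS against PBS were each lost without LPS 1 or PBS 3, that of Nusap1 also without LPS 2 or PBS 1 and that of Top2a also without LPS 3. The rises with HY209 of Kif11, Kif22, Kif4 and Nusap1 were lost without LPS+HY209 1. Those of Kif11 and Kif22 were lost without LPS+HY209 3 or LPS 1 as well, Kif11 without LPS 3, Kif22 without LPS 2, and Kif4 without LPS 1 or LPS 2. The calls of Kif23, Kif2c, Cenpa and Prc1 in LPS against PBS held in every alternative run.

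**Figure D3:**
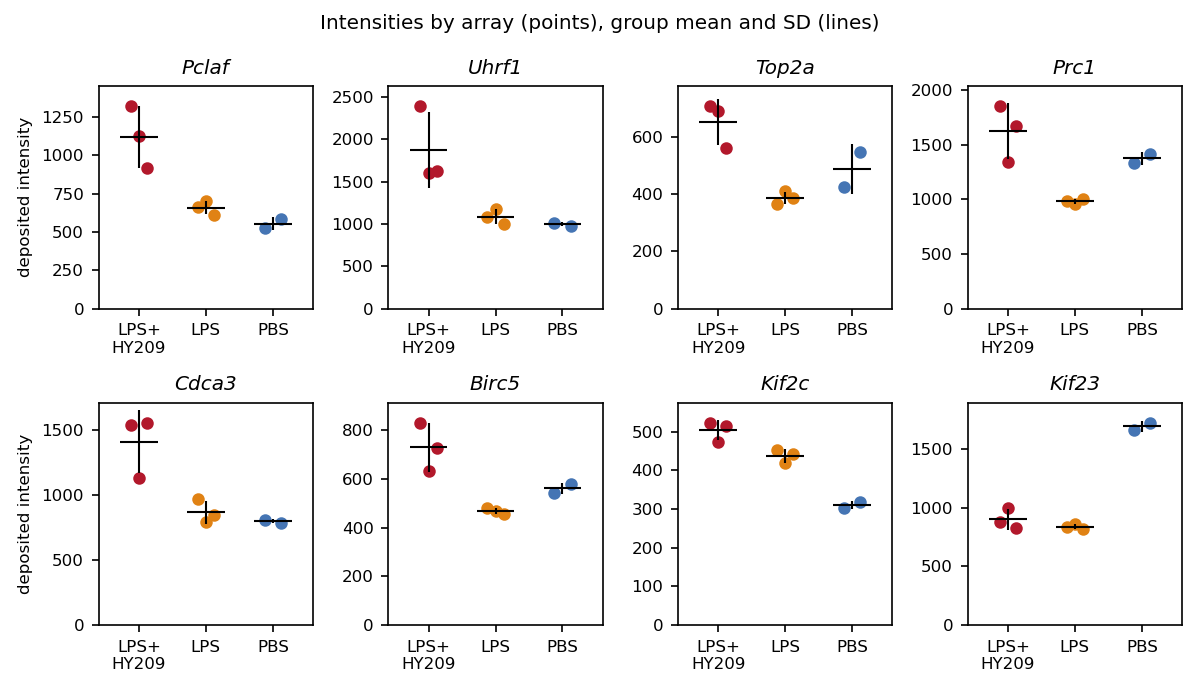
Deposited intensity of 8 members on each array (points), with the group mean and SD (lines), on axes that start at 0. Pclaf, Uhrf1, Top2a, Prc1, Cdca3 and Birc5 are highest on average in LPS+HY209, Kif2c is lowest in PBS, and Kif23 lies between 821 and 997 in both groups that had LPS, against 1659 and 1723 in PBS.

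Both measured genes of chromosome structure rose with HY209, against 6.05% of all genes tested. Top2a, the topoisomerase that untangles sister chromatids, had 708, 690.1 and 562 on the LPS+HY209 arrays, 367, 409.8 and 386 on the LPS arrays and 427 and 549 on the PBS arrays. The 3 groups did not overlap, and the change in LPS+HY209 against LPS was the largest of all members (1.82-fold, 0.87 ± 0.13, adjusted p = 0.0024). Ncaph, a subunit of condensin I, had 661, 625 and 630.1 on the LPS+HY209 arrays, 497, 482 and 483 on the LPS arrays and 569 and 467 on the PBS arrays. Every LPS+HY209 array was above the other 5 arrays (0.44 ± 0.09 against LPS, adjusted p = 0.014, and the call was lost without LPS+HY209 1).

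The array LPS+HY209 1 weighed most in these rises. It was the highest of the 3 LPS+HY209 arrays for 18 of the 22 called members (81.8%), against 60.5% of the 623 genes called higher overall. Without it, 11 of the 22 members remained called: Tyms, Tk1, Uhrf1, Pclaf, Cdca7, Mad2l1, Sgo1, Cdca3, Birc5, Prc1 and Top2a. The number of all genes called higher moved to 259 without it, 2.54% of the genes then tested, against 34.4% of the members. The mean log2 intensity of the tested members was 9.18, 8.92 and 8.99 on the LPS+HY209 arrays, 8.59, 8.54 and 8.54 on the LPS arrays and 8.61 and 8.68 on the PBS arrays. LPS+HY209 2, the lowest of its group, was thus above every LPS and PBS array.

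Of the 12 members with several probes, 11 further probes lay above background on at least 2 arrays, and all 11 had a log2 change above 0 in LPS+HY209 against LPS. The changes ranged from 0.01 ± 0.12 (Tyms) to 0.71 ± 0.10 (Birc5). In a fit over probes, those of Birc5, Cdca3 and Rrm2 and a probe of Cdc20 had an adjusted p under 0.05. Those of Kif4, Tk1 and Tyms and another of Cdc20 did not. In LPS against PBS, probes of Birc5, Cdca3, Cdc20, Tk1 and Tyms differed in whether or which way they changed. The further Birc5 probes changed by -0.35 ± 0.11 (adjusted p = 0.015 in a fit over probes) and -0.19 ± 0.12 (adjusted p = 0.21). The Birc5 probe used, at -0.30 ± 0.12, had an adjusted p = 0.055 in that fit. The second Cdca3 probe had 431, 298 and 386 on the LPS+HY209 arrays, 280.0, 241 and 263 on the LPS arrays and 375 and 402 on the PBS arrays, a change of -0.73 ± 0.17 (adjusted p = 0.0027 in a fit over probes), against 0.12 ± 0.15 for the probe used. That second probe changed by -0.10 ± 0.17 in LPS+HY209 against PBS (adjusted p = 0.66 over probes), against 0.86 ± 0.15 for the probe used, and with the mean of all probes the call of Cdca3 there was lost (adjusted p = 0.060). A further Cdc20 probe had 482, 382 and 451 on the LPS+HY209 arrays, 374, 350.3 and 379 on the LPS arrays and 263 and 283 on the PBS arrays, a change of 0.55 ± 0.12 (adjusted p = 0.0024 over probes), against -0.09 ± 0.13 for the probe used. For Tyms, a second probe above background changed by -0.01 ± 0.09 in LPS against PBS, and with the mean of all probes the call of Tyms there was lost (adjusted p = 0.20), as was its call in LPS+HY209 against LPS (adjusted p = 0.050). For Tk1, a second probe above background on all 8 arrays changed by -0.06 ± 0.11 in LPS against PBS (adjusted p = 0.69 over probes) and by 0.16 ± 0.10 in LPS+HY209 against LPS (adjusted p = 0.38 over probes). With the mean of all probes the call of Tk1 in LPS against PBS was lost (adjusted p = 0.093), and so was that of Kif4 in LPS+HY209 against LPS (adjusted p = 0.065).

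Genes of the same processes outside the list included many rises with HY209. Over all genes tested, 6.05% were called higher and 3.42% lower in LPS+HY209 against LPS. Of 19 tested origin licensing genes, 12 were called higher and 0 lower in LPS+HY209 against LPS, among them Mcm5 (0.64 ± 0.11), Mcm6 (0.61 ± 0.10), Mcm3 (0.59 ± 0.11) and Mcm2 (0.56 ± 0.10), subunits of the replicative helicase. The median over the list was 0.36. Of 41 other S-phase genes, 14 were called higher and 0 lower (median 0.26), among them Esco2, which establishes cohesion (0.62 ± 0.10), the replication checkpoint adaptor Clspn (0.60 ± 0.11), the histone chaperone subunit Chaf1a (0.59 ± 0.08) and the DNA ligase Lig1 (0.57 ± 0.09). Of 41 other mitosis genes, 14 were called higher and 0 lower (median 0.25), among them the phosphatase Cdc25a (0.66 ± 0.13), the mitotic kinase Pbk (0.65 ± 0.11), Cdca2 (0.64 ± 0.10) and the condensin subunit Ncapd2 (0.58 ± 0.09). The adjusted p of these 12 named genes lay between 0.0016 and 0.0094 in limma, and at an unadjusted p under 0.05 no gene of the 3 lists was lower. The origin licensing count was 5 to 7 without LPS+HY209 1 or 3 or any 1 LPS array. The count of other mitosis genes was 4 without LPS+HY209 1, 9 without LPS+HY209 3 and 7 without LPS 3.

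In LPS against PBS these lists had calls in both directions, as had all genes tested (25.5% higher and 29.9% lower). Origin licensing had 4 higher and 6 lower, with Mcm10 at 0.79 ± 0.11 (adjusted p = 6.5e-05) and the origin recognition subunit Orc3 at -1.06 ± 0.11 (adjusted p = 4.7e-06). The higher count was 2 without LPS 1 or PBS 3, and the lower count 3 without PBS 3. Other S-phase genes had 6 higher and 11 lower, with the chaperone subunit Chaf1b at 0.58 ± 0.10 (adjusted p = 0.00037), Rpa1, which coats single-stranded DNA, at -1.28 ± 0.10 (adjusted p = 3.9e-07) and the polymerase subunit Pold1 at -1.03 ± 0.11 (adjusted p = 6.3e-06). Other mitosis genes had 4 higher and 12 lower, with Hmgb2 at 0.66 ± 0.15 (adjusted p = 0.0032) and the condensin subunits Ncapd3 at -0.73 ± 0.10 (adjusted p = 7.8e-05) and Ncapg2 at -0.72 ± 0.09 (adjusted p = 3.8e-05). The higher count of that list was 2 without PBS 1.

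Regulators of these genes had calls in both directions with LPS, as had 25.5% (higher) and 29.9% (lower) of all genes tested. Of 16 tested E2F, MuvB and Rb genes, 6 were higher and 5 lower in LPS against PBS. E2f3 changed by 1.41 ± 0.12 (adjusted p = 7.9e-07), Mybl2, which encodes B-Myb, by 1.21 ± 0.10 (adjusted p = 7.8e-07), and Rb1 by -0.51 ± 0.11 (adjusted p = 0.0017). In LPS+HY209 against LPS 2 were higher and 0 lower, Mybl2 (0.45 ± 0.09, adjusted p = 0.011) and E2f6 (0.33 ± 0.08, adjusted p = 0.026), and at an unadjusted p under 0.05 limma gave 3 higher and 1 lower. Mybl2 averaged 798 ± 68.5 in LPS+HY209, 603 ± 23.8 in LPS and 298 ± 0.405 in PBS (intensity, SD). Of 8 tested G1 cyclin and kinase genes, 1 was higher and 3 lower in LPS against PBS, namely Ccnd3 (0.86 ± 0.08), Ccnd1 (-1.55 ± 0.10), Skp2 (-0.78 ± 0.10) and Ccnd2 (-0.32 ± 0.11). In LPS+HY209 against LPS limma called 0, and 2 were higher at an unadjusted p under 0.05. Of 19 tested Cdk inhibitors and antiproliferative genes, 8 were higher and 7 lower in LPS against PBS. Cdkn1a, the p21 inhibitor, changed by 2.79 ± 0.20 (adjusted p = 2.6e-07) and Cdkn2d, the p19 inhibitor, by 1.76 ± 0.11 (adjusted p = 4.9e-08). Among the 7 lower, Klf4 changed by -1.09 ± 0.10 (adjusted p = 2.2e-06), Sesn1 by -0.93 ± 0.08 (adjusted p = 1.8e-06) and Cdkn2b by -0.51 ± 0.13 (adjusted p = 0.0045). With HY209 added to LPS, 1 of that list was higher, Sesn1 (0.40 ± 0.08, adjusted p = 0.0089), and 2 were lower, Gadd45g (-0.39 ± 0.09, adjusted p = 0.016) and Tob1 (-0.36 ± 0.08, adjusted p = 0.018). Over all genes tested, 6.05% were higher and 3.42% lower in that comparison.

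**Figure D4:**
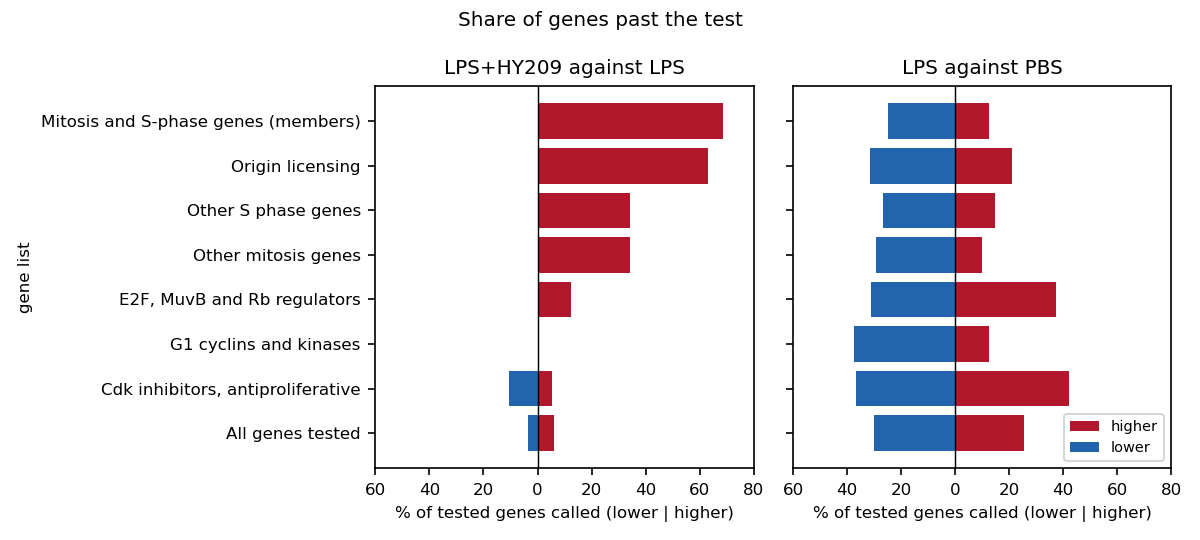
Share of tested genes called higher (right of 0) and lower (left of 0) in LPS+HY209 against LPS and in LPS against PBS, for the members, the related gene lists and all 10296 genes tested. In LPS+HY209 against LPS the members and origin licensing have the longest bars to the right and none to the left, while in LPS against PBS every list has both. The lists were chosen with earlier results of these data known.

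Markers of other cell types moved in the same arrays, and their part in the members' changes was not tested. Over all genes tested, 6.05% were called higher and 3.42% lower in LPS+HY209 against LPS. In LPS+HY209 against PBS the shares were 21.4% and 25.9%. Of 18 erythroid markers on the array, 12 were called higher and 0 lower in LPS+HY209 against LPS, led by Slc4a1 (1.97 ± 0.16), Trim10 (1.34 ± 0.10) and Alas2 (0.86 ± 0.16). Their summed intensity was 50131 to 62633 in LPS+HY209, 29307 to 32438 in LPS and 85818 to 87209 in PBS, and 2 of the 18 were never above background. Summed over the 41 members, the intensity was 26692 to 32304 in LPS+HY209, 21046 to 21750 in LPS and 24142 to 25267 in PBS. LPS+HY209 1 had the highest sum of its group for the members and for the erythroid list. It also had the highest for the megakaryocyte, macrophage, T and NK cell, and germinal centre and plasma cell lists. Of 11 B cell markers, 7 were higher and 0 lower, with sums of 20435 to 22314, 13372 to 13977 and 71149 to 73424 in the same groups, 1 never above background, and the lowest LPS+HY209 sum on LPS+HY209 1. Of 8 megakaryocyte markers, 7 were higher and 0 lower, with sums of 2627 to 2783, 1845 to 1932 and 3068 to 3279, and 1 never above background. For these 3 cell types every LPS+HY209 sum lay below both PBS sums. The sums over all members in LPS+HY209 lay above both PBS sums of the members. By role, they reached below both PBS sums for centromere and passenger complex (5425 to 6478 against 6331 and 6802). The same held for spindle and cytokinesis (5480 to 6588 against 5792 and 6052). In the other role groups no LPS+HY209 sum lay below both PBS sums. The megakaryocyte sum was lower through Vwf (-1.42 ± 0.09 in LPS+HY209 against PBS) and Ppbp (-0.64 ± 0.11). Of the 7 tested markers of that list, 3 were called higher in LPS+HY209 than in PBS, as most members were, namely Gp1bb (0.64 ± 0.11), Pf4 (0.62 ± 0.11) and Treml1 (0.35 ± 0.10), and the list's median was 0.10. The erythroid list had 0 higher and 12 lower of 16 in that comparison, and the B cell list 0 higher and 9 lower of 10. At an unadjusted p under 0.05, limma gave 1 higher erythroid and 0 higher B cell markers.

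Of 14 neutrophil precursor markers, 3 were called higher with HY209 and 0 lower, Ctsg (0.47 ± 0.11), Mpo (0.42 ± 0.08) and Ms4a3 (0.38 ± 0.11). Of the 14, 8 had a log2 change below 0, and the list's median was -0.061, against -0.013 over all genes tested. Ctsg and Ms4a3 were dim, averaging 253 and 250 in LPS+HY209 and 202 and 207 in LPS. The list's sums were 223775 to 231706 in LPS+HY209, 235042 to 241841 in LPS and 174704 to 182629 in PBS, and no marker stayed below background. These sums weigh bright markers most. In LPS+HY209, Ltf averaged 51950 and Ngp 28543, against 485 for Mpo and 790 for Prtn3. The sums therefore say little about dim markers such as Ctsg, Mpo and Ms4a3. In LPS against PBS 9 of the 14 markers were higher and 1 lower, against 25.5% and 29.9% of all genes tested. Of 13 mature neutrophil markers, 0 were higher and 1 lower with HY209 (Clec4e, -0.36 ± 0.09), with sums of 242634 to 249998, 246666 to 255550 and 183444 to 193658. Of 16 T and NK cell markers, 11 were tested, and 3 were never above background. Of the 11, limma called 0 with HY209, and 3 were higher at an unadjusted p under 0.05. The sums over the 16 were 21137 to 29049, 21259 to 21826 and 70377 to 73702, the highest of LPS+HY209 on LPS+HY209 1. Of 14 macrophage markers (13 tested), 0 were higher and 7 lower, 1 never above background, with sums of 35601 to 38345, 46052 to 48192 and 195179 to 198303. Germinal centre and plasma cell markers had 2 higher of 11 (8 tested), Mzb1 (0.79 ± 0.11) and Irf4 (0.63 ± 0.09). Stem and progenitor markers had 1 of 9 (7 tested), Gata2 (0.66 ± 0.13), and neither list had a marker called lower. Their sums were 33242 to 35445, 33142 to 34318 and 36245 to 36779.9 for germinal centre and plasma cells and 1798 to 1864, 1777 to 1897 and 1932 to 1979 for stem and progenitor cells, with 3 and 0 markers never above background. At an unadjusted p under 0.05, limma gave no lower marker of the erythroid, B cell, megakaryocyte, neutrophil precursor and T and NK cell lists with HY209. It gave no higher marker of the mature neutrophil and macrophage lists, 1 lower germinal centre or plasma cell marker and 2 lower stem and progenitor markers.

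**Figure D5:**
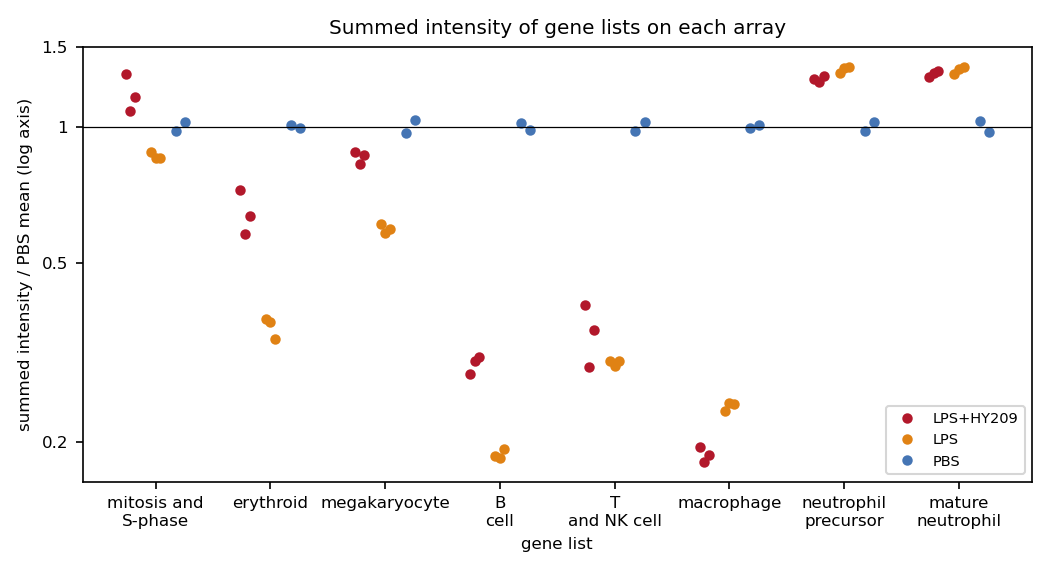
Summed intensity of the 41 members and of 7 cell type marker lists on each array, divided by the mean of the PBS arrays, on a log axis. The LPS+HY209 points of the members lie above 1, those of the erythroid, megakaryocyte, B cell, T and NK cell and macrophage lists lie below 1, and both neutrophil lists lie above 1 in both groups that had LPS.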

How the data were processed

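RNA of Gr1+ spleen cells was measured on 8 arrays, grouped by the sample titles (LPS+HY209, LPS and PBS), with 550 ng of RNA each. The values are intensity on a linear scale, quantile normalized between arrays and not background-subtracted, as deposited by the authors. The submitters' processing notes name GenomeStudio 2011.1 and R 2.15.0. A second table with 16 columns was not used, because its column names match no sample. The lowest intensity was 108.9 and the median 169.7. Background was taken from the peak of dim probes at 148 (log2 SD 0.11). Its upper 5% bound, 168, was exceeded by 51.0% of probes on each array.

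Intensities were corrected by normexp (offset 50), quantile normalized again and put on the log2 scale in limma 3.58.1 under R 4.3.3. Probes above background on at least 2 arrays were kept (14869 of 25697), and the probe with the highest mean stood for its gene, which left 10296 genes. Of all probes, 23978 carried 1 gene symbol, 0 several and 1719 none. For 23962 probes the symbol was looked up in RefSeq through its Entrez identifier, and 0 changed. Promoters of 39 members came from RefSeq on GRCm38.p6, and no other genome sequence was used. All 8 arrays entered a single fit with group means as coefficients (lmFit and eBayes, two-sided, Benjamini-Hochberg over all genes tested). The scripts were tested on simulated data. Log2 changes had a median standard error of 0.098 in LPS+HY209 against LPS and of 0.11 in the comparisons with PBS. Folds are on the background-corrected scale and are not ratios of the printed intensities.

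The labels describe the arrays as separate pools of spleens, so the p-values measure the spread between pools. The members, the gene lists and the rule for named genes were chosen with earlier results of these data known. Values on every array are given for the members with the largest called changes and the highest means of each role. Of the related lists the largest called changes are named, up to 4 a direction (3 for cell types). Related genes and markers support nothing beyond their own counts. The alternatives were no background correction, 75th percentile scaling, testing every gene, a stricter filter (over 177), the mean of all probes, only the groups compared, a block for the replicate number, and each array left out in turn.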

Additional observations from a re-analysis of the deposited data

How the results depend on the processing

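No alternative turned the direction of a called member. For the 22 called in LPS+HY209 against LPS, leaving out an array could hardly do so, since every LPS+HY209 array stood above every LPS array. The counts of members called in LPS+HY209 against LPS stayed between 20 and 25 higher and at 0 lower, except with an array left out, where the higher count ranged from 11 (without LPS+HY209 1) to 22 and the lower count stayed at 0. In LPS against PBS the counts with an array left out ranged from 2 to 4 higher (2 without PBS 1 or PBS 3) and from 3 to 9 lower (3 without PBS 3 and 5 without LPS 1). In LPS+HY209 against PBS they ranged from 12 to 22 higher (12 without PBS 1 and 14 without PBS 3), and the lower count stayed at 1. With a replicate block and PBS 3 numbered 2, as its description gives, that lower count was 2. Leaving out 1 PBS array leaves 1, which is then assumed to vary like the other groups. The cause of these moves was not tested, but fewer arrays were fitted.

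The labels do not say that title numbers pair arrays, so the numbers were not used as pairs in the main fit. Across genes, deviations from the group means correlated between -0.19 and 0.29 in 7 pairs of arrays with the same number, and 3 exceeded 0.1. The highest were LPS+HY209 2 with LPS 2 (0.29) and LPS+HY209 3 with LPS 3 (0.27). Pairs with different numbers were not computed, so these correlations cannot decide whether the numbers mark a shared batch. The replicate block gave 23 higher in LPS+HY209 against LPS, 4 higher and 6 lower in LPS against PBS, and 23 higher in LPS+HY209 against PBS. Among called members it lost Birc5 and Nusap1 in LPS against PBS, Cdca8 in LPS+HY209 against LPS and Cdk1 in LPS+HY209 against PBS. With PBS 3 numbered 2, the block lost Birc5 and Top2a in LPS against PBS. With every gene tested, Mad2l1, Birc5, Nusap1 and Top2a were lost in LPS against PBS, Rrm2 and Cdca8 in LPS+HY209 against LPS, and Cdk1 in LPS+HY209 against PBS. Of the called members, 9 of 22 in LPS+HY209 against LPS, 4 of 12 in LPS against PBS and 9 of 23 in LPS+HY209 against PBS were called under every setting. Scaling to the 75th percentile gave the same counts, since the deposited arrays share their quantiles. Members near the background threshold, such as Pcna, Cdc25c and Tpx2, have little signal over background, which limits what a change there can show. The same limit holds for 2 members called with HY209, Sgo1 (169 to 204 in LPS) and Cdca8 (192 to 204 in LPS). The other probes of Sgo1 lay below background on every array.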
